A study of Homo sapiens with 16 samples.

Results

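The 10 loci described here, USP31, PTPRM, FNBP1, TFPI, NTS, CDC14A, LRRC3C, FGD6, RAP1A and BLID, are those of the strongest H3K27ac regions that were seen with TWEAK in cells with Fn14 and in no other sample, out of 20046 protein-coding genes. They were chosen by the measured values themselves. Peaks of 16 samples were joined into 55219 regions, and 897 of these (1.62%) had a peak in all 4 TWEAK-treated control lists and in none of the other 12 lists. The 10 regions with the highest mean −log10 q-value over the 4 lists, called index regions below, gave the 10 genes. Windows of 100 kb on each side of the gene bodies were then read in all lists. They held 1548 peaks, 1 to 24 per window and list, which fell into 121 regions. Of these, 13 belonged to the class of 897 and 108 were neighbours, which the choice did not use.

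H3K27ac ChIP-seq recovers chromatin with acetylated lysine 27 of histone H3, a mark of active promoters and enhancers. The cells were MDA-MB-231 and Hs578T, established human triple-negative breast cancer (TNBC) lines of mesenchymal type, each as CRISPR control and as Fn14KO cells, the latter made with a pair of guides in the TLCV2 vector. All cells were starved for 8 h and then left untreated or given TWEAK at 10 ng/ml for 48 h, with a fresh dose after 24 h. There were 8 groups of 2 samples, which the study's methods describe as biological replicates, and the labels do not tie them to separate cultures. The p-values measure the spread between these lists. Peak lists hold no reads over the edited gene, and the genotype labels were taken as given.

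TWEAK is a cytokine of the TNF family, and Fn14 is its receptor. Binding of TWEAK recruits TRAF proteins to Fn14 and can activate the canonical and non-canonical NF-κB pathways and the JNK and AP-1 pathway. By immunoblot of lines that included both used here, the study reported non-canonical NF-κB and JNK activation with TWEAK. It reported no effect on canonical NF-κB. NF-κB and AP-1 bind enhancers, and the acetylation of H3K27 by p300 and CBP accompanies enhancer activity. The 10 genes have diverse products. PTPRM is a receptor tyrosine phosphatase of cell contacts, RAP1A a small GTPase that acts on integrin adhesion, FGD6 an exchange factor of the Cdc42 type and FNBP1 an F-BAR protein that couples curved membranes to actin. TFPI is the secreted inhibitor of the tissue factor pathway of coagulation and NTS encodes the peptide neurotensin. USP31 is a ubiquitin protease, CDC14A a dual-specificity phosphatase that acts on substrates of cyclin-dependent kinases, and BLID a small protein with a BH3-like motif. LRRC3C is a leucine-rich repeat protein.

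The lists held 39544 to 47197 peaks that covered 64.2 to 88.9 Mb. Sequencing depth is unknown. The median −log10 q-value was 9.44 to 10.8 in the 4 MDA-MB-231 control lists and 5.79 to 7.69 in the 4 MDA-MB-231 Fn14KO lists, and 7.86 to 9.04 against 8.24 to 8.61 in Hs578T. The mesenchymal markers VIM, CD44, AXL, CAV1 and ZEB1 had a promoter peak in 16 of 16 lists. Of the luminal markers, ESR1, PGR and CDH1 had none and FOXA1 had one in 2 lists, while ERBB3, GATA3 and KRT18 had one in 16. The blood cell markers PTPRC, CD3E and SPI1 had none.

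Sequences were read from hg38 as the 300 bases at the centre of the stretch that the 4 control TWEAK peaks of an index region share. Matches to TGANTCA, a core of AP-1 sites, and to GGGNNNTTCC, a core of NF-κB sites, were searched on both strands. The NF-κB letters were found in 6 of the 10 windows (USP31, FNBP1, NTS, FGD6, RAP1A and BLID), once in each. Among the central 300 bases of all 55219 consensus regions 5.7% held them, as did 24.1% of the 872 regions of the class whose 4 peaks share any base. The AP-1 letters were found in 2 of the 10 windows (PTPRM and BLID), against 26.1% of the consensus regions and 25.8% of the class. BLID alone held both, at positions that do not overlap, against 1.46% of the consensus regions and 7.80% of the class. TFPI, CDC14A and LRRC3C held neither. A match is a description of these letters and not a binding site. The 6 windows with a match that touch no exon of a protein-coding transcript are given below, since they show the bases under the strongest gained regions. They are in lower case, with the matched letters in capitals.
USP31, chr16:23145741-23146040, plus strand: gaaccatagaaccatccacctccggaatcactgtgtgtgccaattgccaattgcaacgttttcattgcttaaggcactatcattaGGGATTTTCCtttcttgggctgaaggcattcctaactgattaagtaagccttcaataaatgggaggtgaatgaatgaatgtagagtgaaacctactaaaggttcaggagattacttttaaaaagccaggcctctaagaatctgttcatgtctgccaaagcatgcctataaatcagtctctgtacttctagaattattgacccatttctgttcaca
PTPRM, chr18:8224571-8224870, plus strand: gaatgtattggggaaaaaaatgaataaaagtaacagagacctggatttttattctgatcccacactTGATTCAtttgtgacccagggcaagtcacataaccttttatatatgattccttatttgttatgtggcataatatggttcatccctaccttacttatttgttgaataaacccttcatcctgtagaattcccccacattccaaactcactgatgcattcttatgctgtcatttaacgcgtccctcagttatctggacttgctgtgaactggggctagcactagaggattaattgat
FNBP1, chr9:130010654-130010953, plus strand: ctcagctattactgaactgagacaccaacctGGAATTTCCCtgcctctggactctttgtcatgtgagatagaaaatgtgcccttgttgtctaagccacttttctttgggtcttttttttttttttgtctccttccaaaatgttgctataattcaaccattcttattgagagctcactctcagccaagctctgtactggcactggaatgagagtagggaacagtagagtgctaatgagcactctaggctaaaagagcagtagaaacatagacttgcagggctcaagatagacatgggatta
FGD6, chr12:95173533-95173832, plus strand: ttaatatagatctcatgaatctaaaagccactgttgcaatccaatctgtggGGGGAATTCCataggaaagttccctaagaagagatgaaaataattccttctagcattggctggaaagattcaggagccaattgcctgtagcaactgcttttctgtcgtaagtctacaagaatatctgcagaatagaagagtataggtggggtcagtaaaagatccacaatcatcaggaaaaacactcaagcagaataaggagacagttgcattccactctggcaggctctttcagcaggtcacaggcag
RAP1A, chr1:111616398-111616697, plus strand: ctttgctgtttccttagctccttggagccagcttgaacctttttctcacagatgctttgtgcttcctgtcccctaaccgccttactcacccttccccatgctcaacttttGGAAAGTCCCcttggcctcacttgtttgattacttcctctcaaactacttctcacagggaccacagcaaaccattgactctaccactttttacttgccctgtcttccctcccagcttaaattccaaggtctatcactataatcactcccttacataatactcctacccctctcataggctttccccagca
BLID, chr11:122045304-122045603, plus strand: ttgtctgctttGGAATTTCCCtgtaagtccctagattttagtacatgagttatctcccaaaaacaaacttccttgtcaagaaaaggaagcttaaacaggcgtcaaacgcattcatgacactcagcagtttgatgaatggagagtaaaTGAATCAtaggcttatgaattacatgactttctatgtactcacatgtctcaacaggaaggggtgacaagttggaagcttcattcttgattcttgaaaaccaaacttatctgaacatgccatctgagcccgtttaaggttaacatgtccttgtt

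Each index region had exactly 1 peak in each of the 4 control TWEAK lists and none in the 4 untreated control lists or the 8 Fn14KO lists, which is what the choice required. Their mean −log10 q-values ran from 24.3 to 37.5 with a median of 27.4, against a median of 4.3 for the class. The fold enrichment, the ratio of signal in the peak to its local background as the peak caller gave it, averaged 8.72 to 13.5 over the 4 lists. The region at BLID (24.3) was just inside the threshold. The next region, between protein-coding genes at chr13:75078503-75080158 and nearest to the start of TBC1D4, had 23.7. When the class was ranked by mean fold enrichment instead, FGD6 and BLID took places 16 and 15, and when it was ranked by the lowest of the 4 scores RAP1A took place 13.

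The index region of USP31 (chr16:23144900-23147547) had the highest score. Its fold enrichment was 15.7 and 14.3 in the MDA-MB-231 TWEAK lists and 11.9 and 12 in the Hs578T TWEAK lists. It lay in the first part of the gene, 1905 bp from the nearest transcript start, beside the promoter region that was present in all 16 lists. At PTPRM the region (chr18:8223590-8225732) was intronic and 110019 bp from the nearest start. Its fold enrichment was 13.3 and 13.8 in MDA-MB-231 and 12.2 and 12.7 in Hs578T.

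The FNBP1 region (chr9:130009553-130011968), in an intron, had 13.6 in both MDA-MB-231 lists but 7.74 and 10.3 in Hs578T, the widest gap between the lines. The TFPI region (chr2:187518450-187521949) was the broadest, at 3500 bp, touched an untranslated exon and lay 4797 bp from a transcript start. Its fold enrichment was 11.3 in both MDA-MB-231 lists and 10.3 and 11 in Hs578T. RAP1A had its region in an intron (chr1:111615875-111617119), 2658 bp from a start, with 10.4 and 12.2 in MDA-MB-231 and 7.12 and 8.96 in Hs578T. The CDC14A region (chr1:100443310-100444896), also intronic, had 10.5 and 10.7 in MDA-MB-231 and 8.61 and 8.22 in Hs578T.

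The LRRC3C region (chr17:39939392-39940439) was the narrowest at 1048 bp and lay in an intron. It had a fold enrichment of 11.8 and 10.4 in MDA-MB-231 and of 9.05 and 8.42 in Hs578T. That of FGD6 (chr12:95172581-95174831) touched a coding exon and was the most even between the lines, with 8.90 and 8.99 in MDA-MB-231 and 8.77 and 8.24 in Hs578T. A pair of regions did not lie in the gene that names them. The BLID region (chr11:122044574-122046124) was between protein-coding genes, 69216 bp from the gene body. It had 9.62 and 10.3 in MDA-MB-231 and 7.57 and 7.62 in Hs578T. The NTS region (chr12:86001043-86002354) was inside the body of MGAT4C, which encodes a glycosyltransferase, and 118051 bp from the NTS body, so that it fell outside the 100 kb window. NTS was the gene with the nearest start, at 126748 bp. The region had 9.30 and 11.1 in MDA-MB-231 and 8.08 and 8.14 in Hs578T.

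**Figure D1:**
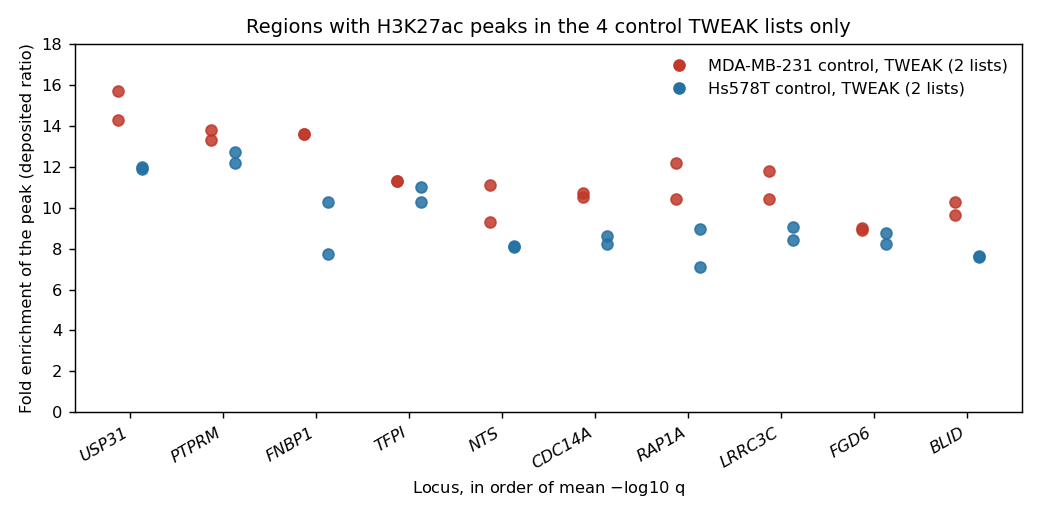
Fold enrichment (deposited ratio, y axis from 0) of the peak in each index region, 1 point per TWEAK-treated control list, with loci in order of score on the x axis. MDA-MB-231 points (red) lie between 8.90 and 15.7 and Hs578T points (blue) between 7.12 and 12.7, and at each locus both red points are above both blue points.

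At all 10 index regions both MDA-MB-231 values were above both Hs578T values. In the class as a whole this held for 301 of 897 regions (33.6%), and the reverse for 217. Scores chose the members, so the count is a description. The median log2 ratio of MDA-MB-231 to Hs578T was 0.33 for the members, 0.04 for the class and 0.09 for the 28337 regions with a peak in all lists.

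The windows of 9 members held their index region, through which they were chosen, and 3 of them held further regions of the class. Over all protein-coding windows, 1886 of 20046 (9.41%) held any class region. That share does not count further regions, and windows differ in length with the gene body, so the counts were not compared. PTPRM had 2 more, at chr18:7710462-7712503 (rank 20 of 897, fold enrichment 7.32 to 11.6) and at chr18:8219095-8220270 (rank 751, 3.08 to 4.04), the latter 4.98 kb from its index region. FGD6 had one at chr12:95129590-95131321 (rank 38), in which Hs578T (8.68 and 9.5) was above MDA-MB-231 (5.34 and 6.02), unlike its index region. CDC14A had one at chr1:100452312-100453386 (rank 386, 3.22 to 5.20).

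Most index regions were not the highest peaks of their surroundings after TWEAK. Among the 77 neighbours with a peak in all 4 control TWEAK lists, 25 had a higher mean fold enrichment than the index region of their locus. USP31 and NTS had none above it, but the NTS index region lay outside the window that was read. At USP31 the only such neighbour, the promoter, had a mean of 7.08 against 13.5. FGD6 (8.72) had 7 of 14 above it and FNBP1 (11.3) had 6 of 17, with a highest value of 41.2.

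Of the 108 neighbours, 62 (57.4%) had a peak in all 16 lists, near the 52.2% of all consensus regions outside the class. A region was called gained in a line where both TWEAK lists and neither untreated list had a peak, and lost in the reverse case. In control cells of MDA-MB-231, 2 neighbours were gained and 1 was lost, or 1.85% and 0.926%, against 4.02% and 4.57% of all consensus regions outside the class. In those of Hs578T 4 were gained and 4 lost, 3.70% each, against 3.53% and 4.72%. In Fn14KO cells none was gained or lost. The shares over all regions were 0.326% gained and 1.37% lost in MDA-MB-231, and 1.07% and 0.843% in Hs578T. These counts are small and moved with the lists that entered. Over both lines 5 neighbours were gained and 5 lost in control cells, and with 1 list left out in turn 4 to 10 were gained and 4 to 10 lost, while in Fn14KO cells 0 to 2 were gained and 0 to 7 lost. The 10 gained came without untreated replicate 2 or TWEAK replicate 1 of MDA-MB-231 control cells, the 10 lost without untreated replicate 2 of Hs578T control cells, and the 7 lost in Fn14KO cells without untreated replicate 2 of MDA-MB-231. Where a peak had to cover 50% of a region to count, 17 were gained and 8 lost in control cells.

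PTPRM held the 1 neighbour gained in both lines, an intronic region at chr18:8149490-8152327, 73.8 kb from the index region. Its fold enrichment was 8.32 and 7.60 in the MDA-MB-231 TWEAK lists and 5.55 and 5.34 in those of Hs578T. It had a weak peak (2.63) in 1 untreated MDA-MB-231 Fn14KO list, which kept it out of the class. Another PTPRM region, chr18:8141406-8143315, was gained in Hs578T (5.31 and 4.56). In MDA-MB-231 its control TWEAK lists had 5.12 and 5.33, and a weak peak (2.79) in 1 untreated control list kept it from the call. Some Fn14KO lists of both lines had weak peaks there (2.71 to 3.23). At TFPI a region inside the gene, chr2:187529270-187534418, was gained in MDA-MB-231 (4.83 and 5.30). It had a peak in both untreated Hs578T lists (4.13 and 5.52) and higher values in the TWEAK lists there (8.91 and 8.75). A second TFPI neighbour, chr2:187586016-187587222, showed the opposite arrangement. It was gained in Hs578T (3.41 and 3.14) and was present in all 4 MDA-MB-231 control lists, at 4.17 and 4.72 untreated and 6.73 and 6.85 with TWEAK. The BLID neighbour gained in Hs578T (2.64 and 2.74) also had peaks in 3 Hs578T Fn14KO lists (2.66 to 3). Of the 5 lost neighbours, 4 were at PTPRM and 1, held by GSDMA, at LRRC3C.

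To compare the height of neighbours and not only their presence, limma was run on the log2 fold enrichment of the 28337 regions with a peak in all 16 lists, centred on the median of each list. Adjusted p-values are Benjamini-Hochberg over all these regions. TWEAK raised 27 and lowered 10 of the 62 neighbours in control cells (43.5% and 16.1%), as means over both lines, against 22.8% and 24.7% of all regions. The median log2 change was 0.18 for the neighbours and -0.02 for all regions. Without centring, which shifted the median of all regions to 0.05, 31 neighbours rose and 6 fell, against 25.5% and 16.6% of all regions. The loci were chosen for the same contrast in the same lists, so that these counts are a description and not independent support. By line, 23 rose and 7 fell in MDA-MB-231 (17.3% and 18.6% of all regions) and 18 rose and 5 fell in Hs578T (15.2% and 15.0%). The TWEAK effect differed between the lines at none of the 62, nor at any of the 28337 regions (0%). At an unadjusted p under 0.05 it differed at 4 of the 62 and at 2053 of all.

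In Fn14KO cells no neighbour and none of the 28337 regions (0%) passed the limma threshold. At an unadjusted p under 0.05 there were 1 of the 62 and 1120 of all, and no region passed in Fn14KO cells in any of the other limma fits that were run. The TWEAK effects of control and Fn14KO cells differed at 25 neighbours, with 20 more positive and 5 more negative in control cells (32.3% and 8.06%), against 16.7% and 16.5% of all regions. Without centring the 5 became 2. The loci were chosen for peaks in control TWEAK lists and in no Fn14KO list. These counts too are therefore a description and not independent support. The MDA-MB-231 Fn14KO lists had lower scores throughout, and the part of this in the difference was not tested.

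**Figure D2:**
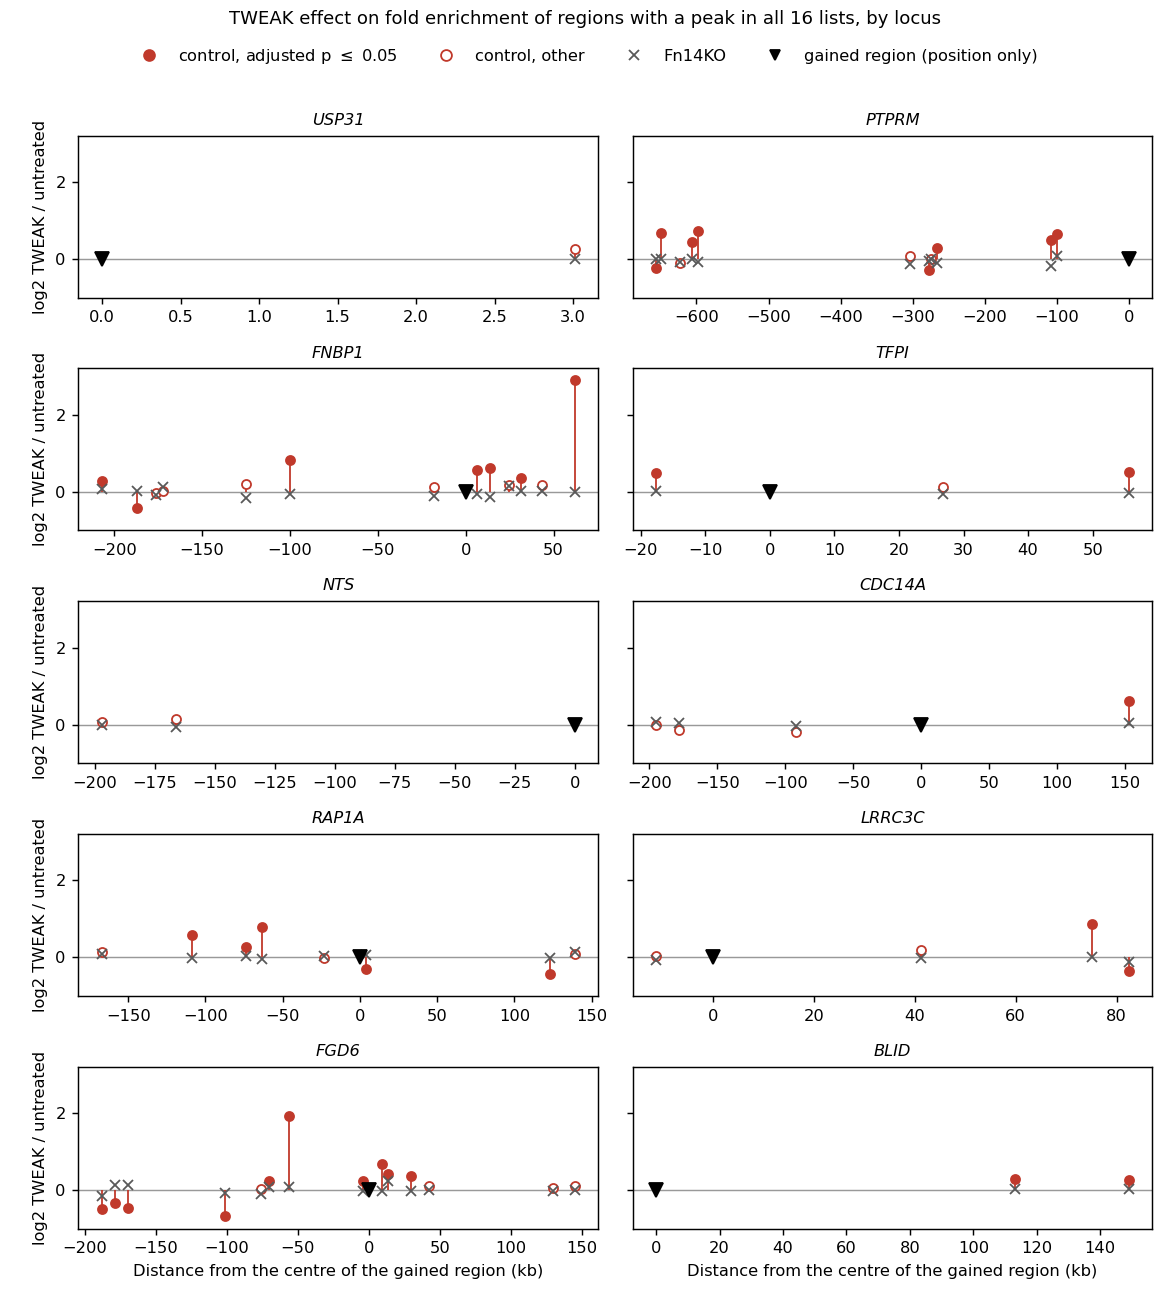
TWEAK effect (log2 of TWEAK over untreated fold enrichment, y axis) of each neighbour with a peak in all 16 lists, against its distance in kb from the centre of the index region (x axis, positive toward higher coordinates, black triangle at 0). Red circles are control cells, filled where adjusted p is 0.05 or less, and crosses are Fn14KO cells. The tallest points are at FNBP1 (2.91) and FGD6 (1.93), and the crosses stay between -0.17 and 0.24.

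The largest neighbour effect was in the FNBP1 window, at chr9:130070616-130074864, in an intron of GPR107 and 62.0 kb from the index region. GPR107 encodes a membrane protein of the Golgi and endosomes. Untreated control cells had fold enrichments of 5.35 and 7.31 in MDA-MB-231 and of 4.06 and 4.39 in Hs578T. With TWEAK they had 50.6 and 47.7 in MDA-MB-231 and 33.6 and 33.1 in Hs578T. All 8 Fn14KO lists lay between 3.64 and 4.83. The region rose 7.50-fold in control cells (log2 2.91 ± 0.09 SE, limma adjusted p = 1.76e-13), the second largest log2 change of the 28337 regions. In Fn14KO cells the log2 change was 0.00, and the effects differed by 2.90 (limma adjusted p = 8.86e-11). Because all untreated lists had a low peak here, the region was not in the class.

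Within FNBP1 itself, 4 neighbours rose, the strongest of them an intronic region at chr9:129909731-129912230. It went from 6.43 and 7.42 to 16.1 and 13.6 in MDA-MB-231, and from 7.17 and 9.17 to 12.4 and 13.8 in Hs578T (log2 0.82 ± 0.09 SE, limma adjusted p = 8.78e-07). Fn14KO lists had 7.71 to 10.0. The intronic regions 6.29 and 14.0 kb from the index region rose by 0.56 and 0.63 on the log2 scale. Beyond the gene, the promoter of TOR1A, a chaperone-like ATPase of the endoplasmic reticulum, fell by 0.41 on the log2 scale (limma adjusted p = 0.000883), while that of its neighbour and relative TOR1B rose by 0.27 (limma adjusted p = 0.0127).

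FGD6 had a region at an internal transcript start (chr12:95114711-95120690) that touched a coding exon and lay 56.0 kb from the index region. Its fold enrichment in untreated control cells was 4.02 and 4.25 in MDA-MB-231 and 4.74 and 4.01 in Hs578T. TWEAK lists had 15.2 and 16.8 in MDA-MB-231 and 17.0 and 19.0 in Hs578T, and Fn14KO lists had 3.64 to 5.96. This was a 3.81-fold rise (log2 1.93 ± 0.11 SE, limma adjusted p = 1.86e-10), exceeded by 0.102% of all regions. Within the gene, 5 further regions also rose, by 0.23 to 0.69 on the log2 scale, and those on either side of the index region, 4.09 and 9.35 kb away, had 0.25 (limma adjusted p = 0.0416) and 0.69 (limma adjusted p = 2.88e-05). The region at the start that FGD6 shares with VEZT, which encodes a protein of adherens junctions, had a log2 change of 0.12 (limma adjusted p = 0.285).

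The same FGD6 window held 4 of the 10 neighbours that fell. The region at the start of NR2C1, an orphan nuclear receptor, went from 8.53 and 12.3 to 5.63 and 5.96 in MDA-MB-231 and from 7.90 and 7.52 to 6.58 and 5.25 in Hs578T (log2 -0.68 ± 0.10 SE, limma adjusted p = 2.61e-05). Its values in Fn14KO lists were 6.53 to 10.0. At the start of NDUFA12, which encodes a subunit of respiratory complex I, and at 2 further regions inside that gene the log2 changes were -0.46, -0.48 and -0.33, and all passed the threshold.

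PTPRM had 6 neighbours that rose and 2 that fell, all about 100 kb or more from the index region. They included 3 intronic regions that rose in the upstream part of the gene, 598 to 649 kb away. One of these (chr18:7625375-7628779) had 9.49 and 9.61 in untreated and 18.1 and 17.4 in treated control cells of MDA-MB-231, and 9.08 and 6.86 against 12.1 and 13.5 in Hs578T. The Fn14KO lists had 5.71 to 8.51. Its log2 change was 0.72 ± 0.10 SE (limma adjusted p = 7.99e-06). The intronic region at chr18:7572228-7579306 rose by 0.68 ± 0.08 SE on the log2 scale (limma adjusted p = 2.17e-06), from 4.46 to 8.01 untreated to 7.70 to 12.9 with TWEAK. The most upstream start of PTPRM fell by 0.23 on the log2 scale (limma adjusted p = 0.0326).

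RAP1A had 3 neighbours that rose and 2 that fell. The intronic region at chr1:111552586-111554173, 63.1 kb from the index region, went from 3.64 and 4.13 to 7.06 and 7.50 in MDA-MB-231 and from 5.03 and 3.97 to 7.38 and 8.03 in Hs578T. Its log2 change was 0.78 ± 0.10 SE (limma adjusted p = 2.36e-06), and Fn14KO lists had 3.06 to 4.54. A region in an intron of TMIGD3, chr1:111507022-111508959, rose by 0.58 ± 0.10 SE on the log2 scale (limma adjusted p = 0.000148). A transcript start of RAP1A only 3.79 kb from the index region fell by 0.31 on the log2 scale (limma adjusted p = 0.0406), and the start of INKA2, an inhibitor of the kinase PAK4, fell by 0.42 (limma adjusted p = 0.000476).

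The windows of the secreted factors, TFPI and NTS, held few fitted neighbours, and a difference between them was not tested. At TFPI, 2 of 3 fitted neighbours rose. The region inside the gene (chr2:187499573-187505558) had 5.31 and 7.15 untreated and 8.48 and 8.96 with TWEAK in MDA-MB-231, and 5.31 and 5.43 against 7.91 and 8.39 in Hs578T (log2 0.48 ± 0.08 SE, limma adjusted p = 0.000135). The region beyond the gene (chr2:187574585-187577028) rose by 0.52 ± 0.08 SE on the log2 scale (limma adjusted p = 2.76e-05). In the window of NTS, which does not hold its index region, neither fitted neighbour passed. The log2 changes were 0.14 at the start of RASSF9 (limma adjusted p = 0.232) and 0.07 inside that gene (limma adjusted p = 0.531). These neighbours lay 166 and 197 kb from the index region, whose own surroundings were not read.

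At USP31 the promoter region had 4.16 and 6.31 untreated and 7.49 and 6.25 with TWEAK in MDA-MB-231, and 5.43 and 6.73 against 7.31 and 7.28 in Hs578T. Its log2 change of 0.27 ± 0.13 SE did not pass (limma adjusted p = 0.0887). At CDC14A only 1 of 4 fitted neighbours passed, a region between protein-coding genes, 153 kb away (chr1:100595794-100598750). It had 14.7 and 18.4 untreated and 24.9 and 25.3 with TWEAK in MDA-MB-231, and 14.3 and 13.5 against 21.2 and 25.1 in Hs578T (log2 0.60 ± 0.08 SE, limma adjusted p = 6.01e-06).

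In the LRRC3C window the neighbour that rose was at CSF3, the gene of granulocyte colony-stimulating factor (chr17:40013737-40016504, 75.2 kb away). It had 6.86 and 5.92 untreated and 12.5 and 11.5 with TWEAK in MDA-MB-231, and 4.62 and 4.41 against 8.57 and 8.78 in Hs578T. The Fn14KO lists had 4.48 to 5.81. Its rise was 1.81-fold (log2 0.86 ± 0.09 SE, limma adjusted p = 6e-07). The adjoining region over MED24, a Mediator subunit, and the end of CSF3 fell by 0.34 on the log2 scale (limma adjusted p = 0.00358), a call that was lost when −log10 q took the place of fold enrichment (limma adjusted p = 0.0508). At BLID both fitted neighbours were broad domains between protein-coding genes. They rose by 0.30 and 0.26 on the log2 scale (limma adjusted p = 0.00526 and 0.00618). The former call was lost when the highest peak of the region was read instead of the mean (limma adjusted p = 0.0548).

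**Figure D3:**
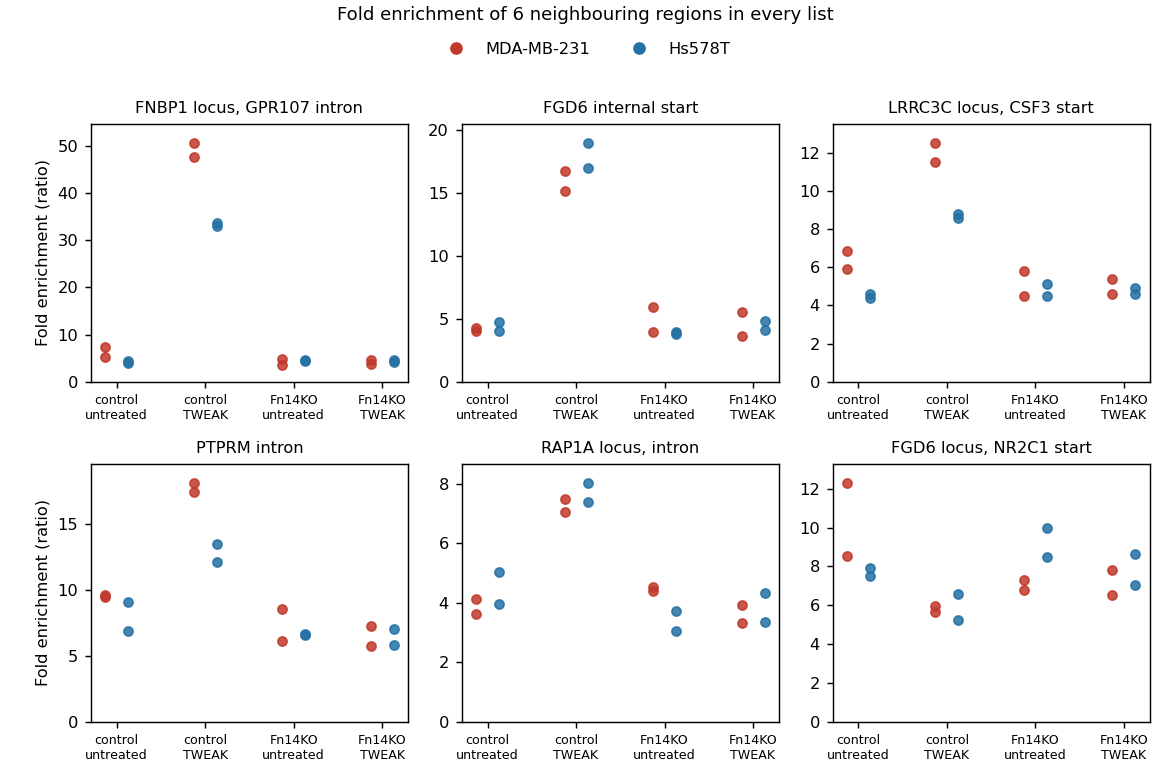
Fold enrichment (deposited ratio, y axis from 0) of 6 neighbouring regions in each of the 16 lists, by genotype and treatment on the x axis, with MDA-MB-231 in red and Hs578T in blue. In 5 panels both TWEAK control lists of each line are above every other list of that line, as at FNBP1 (33.1 to 50.6 against 3.64 to 7.31), and in the NR2C1 panel they are below them.

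Neighbours were also read by their distance from the index region. Within 25 kb, 6 of 12 fitted neighbours rose and 1 fell, from 25 to 100 kb 10 of 17 rose and 1 fell, and beyond 100 kb 11 of 33 rose and 8 fell, beside 22.8% and 24.7% of all regions. The median log2 changes were 0.26, 0.27 and 0.07. These bins hold few regions of few loci and were not tested.

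**Figure D4:**
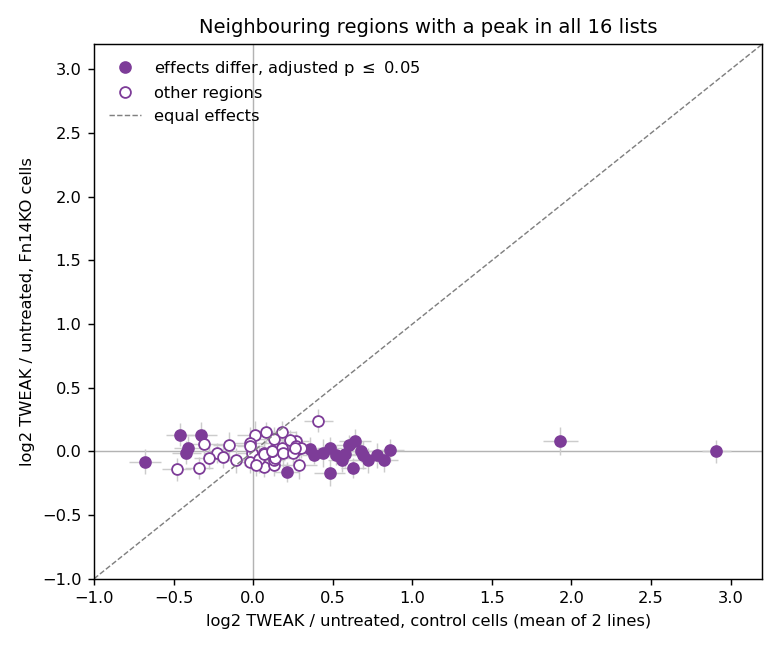
TWEAK effect of the 62 fitted neighbours in Fn14KO cells (y axis) against that in control cells (x axis), both log2 of TWEAK over untreated as the mean of the lines, with SE as bars. Control effects spread from -0.68 to 2.91 while Fn14KO effects stay between -0.17 and 0.24, and filled points mark the 25 regions whose effects differed.

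The index region of USP31, 1905 bp from a start, itself lay within the 2 kb used for promoters here. Other promoter regions did not choose the loci. The contrast and the lists are still those of the choice, so the counts here are a description. A peak within 2 kb of a transcript start was present in all 16 lists at 8 of the 10 genes, in 12 lists at BLID and in none at NTS, while 56.8% of all protein-coding genes had one in all 16. For each gene the fitted start region with the smallest p-value was read, and 4 of the 8 rose with TWEAK in control cells, against 14.6% of 11393 protein-coding genes, while none of the 8 fell, against 20.5%. These were an internal start of FGD6 (above), a downstream start of PTPRM (chr18:8115278-8118558, log2 0.48 ± 0.10 SE, limma adjusted p = 0.000958), the start of FNBP1 (0.36 ± 0.09 SE, limma adjusted p = 0.00228) and the upstream start of RAP1A (0.27 ± 0.08 SE, limma adjusted p = 0.0107). The reading by the smallest p-value hides starts that moved the other way, since 2 further starts of PTPRM (-0.23 and -0.28) and one of RAP1A (-0.31) fell. The values of the others were 0.27 at USP31, 0.13 at TFPI, 0.04 at LRRC3C and -0.19 at CDC14A.

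The length covered by peaks in each window, with all regions of the class left out, was compared by exact permutation tests over 18691 protein-coding windows, again in the lists that chose the loci. Within control cells the smallest p-value that the 36 arrangements can give is 0.0556, so that no window could pass. In control cells TWEAK lists had more covered length at 8 of the 10 loci, against 36.8% of all windows, with a median difference of 2.61 kb against -0.383 kb. In Fn14KO cells the medians were 0.0539 and -0.149 kb. For the difference between the TWEAK effects of control and Fn14KO cells, treatment labels were exchanged within line and genotype. Its p therefore refers to no TWEAK effect in either genotype, and not to equal effects. The difference had an exact two-sided p of 0.05 or less at 4 of the 10 loci, against 12.6% of all windows. None passed after adjustment over all windows (adjusted p = 0.387 at each of the 4).

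At TFPI the covered length was 20.4 and 22.4 kb in untreated and 27.7 and 27 kb in TWEAK-treated MDA-MB-231 control cells, and 25 and 22.1 kb against 29.2 and 33.2 kb in Hs578T. In Fn14KO cells it was 18.6 to 22.4 kb in MDA-MB-231 and 21.7 to 23.6 kb in Hs578T. The TWEAK effects differed by 7.73 kb (exact permutation p = 0.0123). In MDA-MB-231 control cells FNBP1 had 25.4 and 32.0 kb untreated and 39.0 and 42.8 kb with TWEAK, and 38.6 and 37.0 kb against 43.0 and 46.1 kb in those of Hs578T. Its Fn14KO lists had 24.8 to 33.8 kb in MDA-MB-231 and 35.8 to 38.0 kb in Hs578T. The effects differed there by 9.51 kb (exact permutation p = 0.0370). For both genes the TWEAK lists of control cells were above every other list of their line. The FNBP1 difference had p above 0.05 in a window of 200 kb (7.30 kb, exact permutation p = 0.131) and when any 1 of 10 lists was left out, up to an exact permutation p = 0.123 without untreated replicate 1 of MDA-MB-231 Fn14KO. The other 6 lists, without which it kept p at 0.05 or less, were untreated replicate 2 of both MDA-MB-231 genotypes and of Hs578T Fn14KO, untreated replicate 1 of Hs578T control and both TWEAK lists of Hs578T Fn14KO.

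CDC14A differed by 1.06 kb (exact permutation p = 0.00463), with 5.82 to 6.33 kb in untreated and 6.42 to 7.31 kb in TWEAK-treated control lists. Its Fn14KO lists, with 5.60 to 6.80 kb, overlapped both, and the difference missed the threshold in a 200 kb window (1.33 kb, exact permutation p = 0.1) and as a share of the covered length of the list (exact permutation p = 0.0833). LRRC3C differed in the other direction, by -2.29 kb (exact permutation p = 0.00617). Its untreated control lists had 14.5 to 17.5 kb and its TWEAK control lists 13.6 to 15.1 kb. In a window of 50 kb this difference was 0.204 kb (exact permutation p = 0.650), a window that leaves out the regions around CSF3 and MED24. The threshold was also missed in a 200 kb window (exact permutation p = 0.327) and with peaks of −log10 q of 2 or more (exact permutation p = 0.0540).

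**Figure D5:**
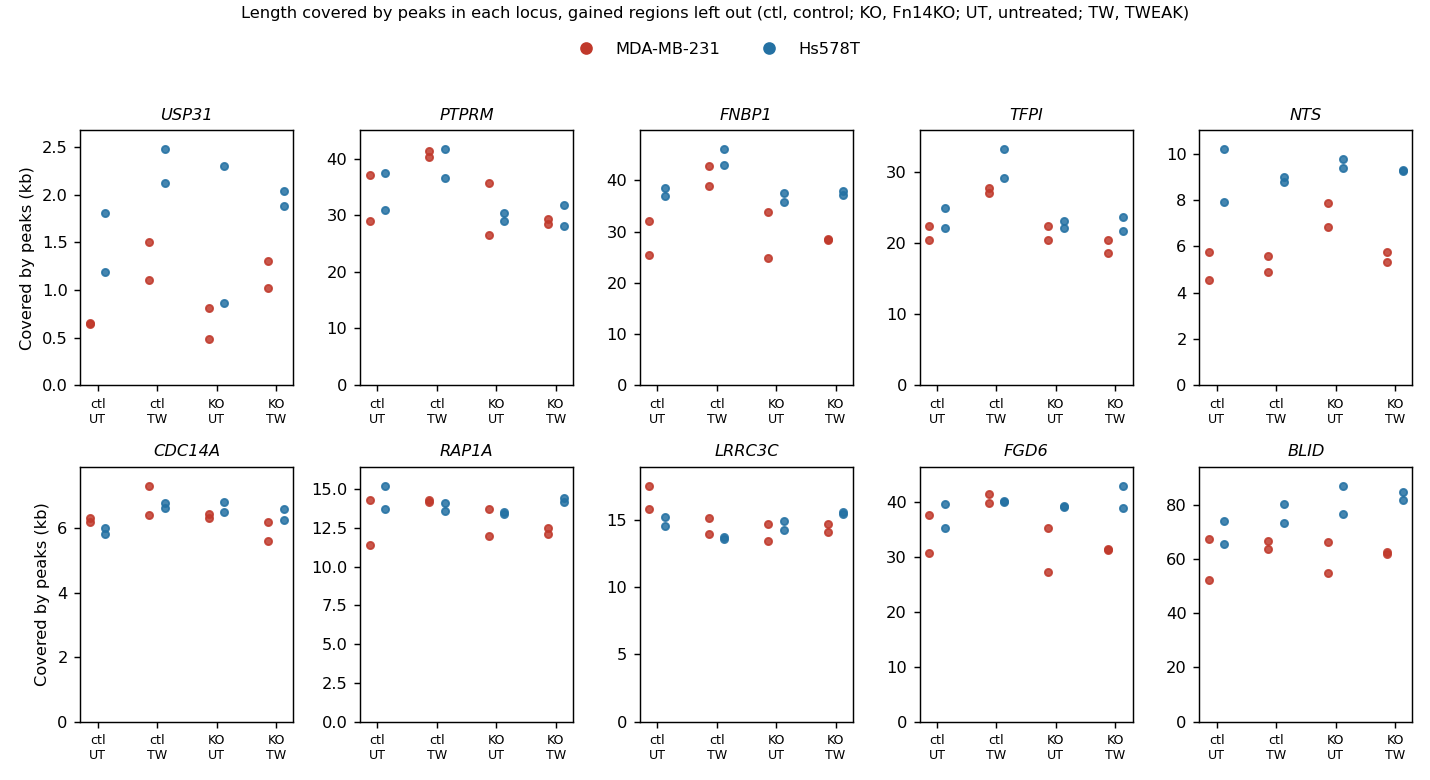
Length in kb covered by peaks in each locus (y axis from 0, a separate scale per panel), with the regions of the class left out, in each of the 16 lists by genotype and treatment, MDA-MB-231 in red and Hs578T in blue. At TFPI the control TWEAK points (27 to 33.2 kb) are above all others of their line, and at LRRC3C the control TWEAK points of Hs578T (13.6 and 13.7 kb) are the lowest of that line.

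Genotype was also compared over both treatments, a contrast that includes the TWEAK effect seen in control cells. Over both treatments the covered length of Fn14KO lists was below that of control lists by 6.87 kb at PTPRM (exact permutation p = 0.0108), 4.36 kb at TFPI (exact permutation p = 0.0185) and 5.01 kb at FNBP1 (exact permutation p = 0.0448), which makes 3 of 10 loci against 19.1% of all windows. None passed after adjustment (adjusted p = 0.155, 0.179 and 0.249). In a window of 200 kb the FNBP1 difference was -3.6 kb and missed the threshold (exact permutation p = 0.198). The FNBP1 value again missed the threshold when any 1 of 9 lists was left out, up to an exact permutation p = 0.134 without untreated replicate 2 of MDA-MB-231 Fn14KO. In untreated cells the control and Fn14KO means were 21.4 and 21.4 kb in MDA-MB-231 and 23.5 and 22.6 kb in Hs578T at TFPI. In the same order they were 28.7 and 29.3, and 37.8 and 36.7 kb at FNBP1. At PTPRM they were 33.1 and 31.2, and 34.3 and 29.7 kb. With TWEAK they were 27.3 and 19.5, and 31.2 and 22.7 kb at TFPI. The TWEAK means were 40.9 and 28.4, and 44.6 and 37.6 kb at FNBP1. The lower scores of the MDA-MB-231 Fn14KO lists stand beside these differences, and their part was not tested.

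Among untreated cells the fold enrichment of 4 of the 62 neighbours differed between the genotypes, with 2 higher and 2 lower in Fn14KO cells, against 3.82% and 4.62% of all regions. The intronic FNBP1 region at chr9:129909731-129912230 was higher in Fn14KO cells by 0.35 ± 0.09 SE on the log2 scale (limma adjusted p = 0.0252), and the RASSF9 region of the NTS window by 0.35 ± 0.08 SE (limma adjusted p = 0.0181). The lower ones were the TFPI region at chr2:187499573-187505558 (-0.31 ± 0.08 SE, limma adjusted p = 0.0309) and a region in the RAP1A window, at the start of DDX20 (-0.40 ± 0.08 SE, limma adjusted p = 0.00639). DDX20, an RNA helicase, was chosen for mention after its value was seen.

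Genes related to the members, as partners in a pathway or as relatives, were read from a list of 37. Windows of 6 held a region of the class, 16.2% against 9.41% of all protein-coding windows. Of their 22 fitted promoters, 7 rose and 5 fell with TWEAK in control cells, against 14.6% and 20.5% of all genes. As for the members, a single fitted start region was read per gene, that with the smallest p-value. RAPGEF1 had 3 fitted start regions and CDC14B and USP43 had 2 each, and their other starts are not given. The Rap1 list of 12 genes had 4 windows with a class region, those of RAP1B, RAPGEF2, RAPGEF3 and RAPGEF6, and 3 promoters that rose and 3 that fell among 9. The exchange factor RAPGEF1 rose by 0.57 on the log2 scale (limma adjusted p = 1.62e-05), RAPGEF3 by 0.44 and RAP1B, the close relative of RAP1A, by 0.22, while RAPGEF2 fell by 0.39 and the GTPase-activating proteins SIPA1 and SIPA1L1 by 0.28 and 0.32.

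In the list of Cdc42 and F-BAR genes the windows of FGD2 and TRIP10 held class regions, the promoter of WASL rose by 0.22 on the log2 scale and that of FNBP1L, the relative of FNBP1, fell by 0.38. TFPI2, a relative of TFPI, rose by 0.43 (limma adjusted p = 0.000517), whereas F3, the tissue factor that TFPI restrains, had a log2 change of -0.05 (limma adjusted p = 0.557). Neither the neurotensin receptor NTSR1 (0.09) nor SORT1 (-0.10) passed. CDC14B, the paralog of CDC14A, fell by 0.55 (limma adjusted p = 1.29e-05), and USP43, a ubiquitin protease like USP31, rose by 0.92 (limma adjusted p = 7.23e-08). BCL2L1 rose by 0.32 (limma adjusted p = 0.00156).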

How the data were processed

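H3K27ac ChIP-seq peak lists of 16 samples were analysed, 2 for each of 8 groups, grouped by their labels. Per the labels and the study's methods, the authors sheared chromatin to 200 to 500 bp, trimmed reads (Trimmomatic), aligned them to hg38 (Bowtie2), called broad peaks per sample against input (MACS2) and removed blacklisted regions; versions are not given in the sources used here. The deposited lists hold each peak's position, its fold enrichment, a ratio to local background, and its −log10 q-value. They hold no reads, so depth is unknown, no counting interval was computed and the count-based comparison of the study (DiffBind) was not run.

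Peaks that overlapped by 1 bp or more were merged over all lists, and a consensus region needed peaks in 2 or more lists. Genes, exons and starts were those of protein-coding genes in GENCODE 44, and genes of other types were not read. A region between protein-coding genes may therefore lie in a gene of another type. A region's fold enrichment in a list was the mean over its peaks, weighted by length. Log2 values, with no pseudocount, were centred on the median of each list and fitted with limma 3.58.1 (R 4.3.3) with a term for each group, and p-values were adjusted by the Benjamini-Hochberg method. The fit was tested on simulated data. Covered lengths were compared by two-sided exact permutation of treatment within line and genotype, or of genotype within line and treatment (Python 3.11.15). Named neighbours were, per locus, the 2 with the smallest adjusted p-value, those gained in both lines, and up to 2 other genes' starts that passed. Further ones were named after their values were seen. The members, gene lists, motifs and markers were chosen with earlier results of these data known. Replicate numbers did not pair the samples (28 group pairs, correlation of deviations -0.15 to 0.26, 1 of them over 0.1). Sequences were read from hg38, and the NTS window, which overlaps an untranslated exon, is not printed. One marker of the list is not reported here.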

Additional observations from a re-analysis of the deposited data

Results flagged for a closer look

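Listed below are fitted neighbours, promoters of related genes and windows whose TWEAK effect differed between control and Fn14KO cells. Regions were tested by a limma contrast of the difference itself, adjusted over all 28337 regions. For windows the difference in covered length was read by exact permutation, which refers to no TWEAK effect in either genotype. Values are control minus Fn14KO. Because the loci were chosen for peaks in control TWEAK lists and in no Fn14KO list, the values at neighbours and windows are a description. Among neighbours the difference in log2 fold enrichment was 2.90 at the GPR107 intron of the FNBP1 window, 1.85 at the internal start of FGD6, 0.89 at the intronic FNBP1 region, 0.77 and 0.63 at the FNBP1 regions 14.0 and 6.29 kb from the index region, 0.37 just beyond the gene. It was 0.85 at CSF3 in the LRRC3C window, 0.80 and 0.61 at the intronic RAP1A and TMIGD3 regions, 0.79 and 0.68 at 2 upstream PTPRM introns and 0.45 between them, 0.55 at a PTPRM intron about 100 kb from the index region, 0.72 and 0.41 at FGD6 regions 9.35 and 29.7 kb away. The values were 0.55 at the region beyond CDC14A, 0.54 and 0.45 beyond and within TFPI. Negative values were -0.60 at the NR2C1 start, -0.59 and -0.46 at the start of and within NDUFA12, -0.44 at the TOR1A start and -0.41 at the INKA2 start. At the promoters of members it was 0.65 for PTPRM and 0.34 for FNBP1.

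At the promoters of related genes it was 1.01 for USP43, 0.62 for RAPGEF1, 0.50 for TFPI2, 0.43 for RAPGEF3 and 0.34 for BCL2L1, and on the negative side -0.56 for CDC14B, -0.52 for FNBP1L, -0.48 for RAPGEF2, -0.42 for BCL2 (whose control change alone did not pass), -0.39 for SIPA1L1 and -0.32 for SIPA1. In these regions the log2 change in Fn14KO cells did not pass the limma threshold. The covered length of windows differed by 9.51 kb at FNBP1, 7.73 kb at TFPI, 1.06 kb at CDC14A and -2.29 kb at LRRC3C before adjustment (adjusted p = 0.387 for each). The lower −log10 q-values of the MDA-MB-231 Fn14KO lists, 5.79 to 7.69 against 9.44 to 10.8 in control lists, accompany all these differences, and their part was not tested.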

How the results depend on the processing

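Of the alternatives tried for single regions and windows, 778 of 807 kept direction and side of the threshold, 27 lost the threshold, 1 gained it and 1 reversed. The reversed one was the LRRC3C covered length, 0.204 kb in a window of 50 kb. The counts of neighbours gained or lost moved most. In control cells the gained count was 17 with 50% cover, 9 with −log10 q of 2 or more and 8 in lists trimmed to 39544 peaks, and 4 to 10 without 1 list. The lost count was 9 in a 200 kb window, 8 with 50% cover, 3 with −log10 q of 2 or more, 3 in trimmed lists and 4 to 10 without 1 list. In Fn14KO cells the gained count was 1 with 50% cover and 0 to 2 without 1 list, and the lost count was 1 with 50% cover, 5 with −log10 q of 2 or more, 3 in trimmed lists and 0 to 7 without 1 list. Loci whose covered-length effect differed between genotypes numbered 1 in a 200 kb window and 1 by number of peaks, and loci that differed by genotype 0 by number of peaks and 5 by share of the list's total length. Without centring, 6 neighbours fell in control cells and 2 were more negative in control than in Fn14KO cells. The cause of these shifts was not tested. With a replicate block within line, 27 neighbours rose and 10 fell and all-region calls went from 13459 to 13486. In the limma fits the block changed no other count by more than 1.5 times. For gained and lost neighbours the block asks for the same peaks as the main call, so those counts could not change. Peak lists limit all this, since a region without a peak may hold signal below the caller's threshold, weak peaks cannot be told from absent ones without depth, and 2 lists per group give the spread of a group on a single difference.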
